A study of Homo sapiens with 13 samples.

Results

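The 10 genes described here encode the protein complex that caps human telomeres (shelterin), the core of telomerase, and a helicase and a chromatin remodeller that act on telomeric DNA. They are TERF1, TERF2, TERF2IP, TINF2, ACD, POT1, TERT, TERC, RTEL1 and ATRX, taken as a named list from 59098 RefSeq genes on chromosomes 1 to 22 and X. A peak was assigned to a gene when it overlapped the annotated span or the 2 kb on either side. By that rule 4 of 12687 peaks lay at these genes in the siREXO4 list, 7 of 20954 in the siRNaseH1 list and 0 of 4458 in the siCtrl list.

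The lists come from DRIP-seq, in which sonicated DNA is immunoprecipitated with the S9.6 antibody against DNA-RNA hybrids and sequenced. U2OS cells, an established osteosarcoma line, had been transfected with siRNA against REXO4 (siREXO4), siRNA against RNaseH1 (siRNaseH1) or a control siRNA (siCtrl). Each transfection has 3 S9.6 libraries, and the authors called 1 peak list on the merge of the 3, so no value below has a replicate error and no test between transfections was made. Tracks of the single libraries were not used here. Peak lists do not show how far either siRNA lowered its target. In bulk DNA a hybrid present in more cells and a hybrid more abundant per cell cannot be told apart.

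Shelterin binds the telomeric repeat and keeps chromosome ends from being treated as breaks. TERF1 and TERF2 bind the double-stranded repeat, POT1 binds the single-stranded overhang and is tethered by ACD (also called TPP1), and TINF2 and TERF2IP (also called RAP1) join these parts. Telomeres are transcribed into the repeat RNA TERRA, which can pair with telomeric DNA. U2OS cells lengthen telomeres by recombination (the ALT pathway) without telomerase, and are known to lack ATRX protein. The peaks below lie at the genes that encode these proteins and not at telomeric repeats.

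Promoter sequences in the RefSeq table (build GRCh38.p14, 250 bases before to 50 after an annotated start) were found for 6 of the 10 genes, as 8 windows at TERF2IP, TINF2, ACD, POT1, TERT and RTEL1. None of the 8 overlapped a peak in any list. Of all 34961 windows, 11.4% did in the siREXO4 list, 11.8% in the siRNaseH1 list and 1.23% in the siCtrl list, so 0 of 8 is near these shares. TERF2, whose peaks in both knockdown lists run across its 5′ end, is not among the 6 genes. TINF2 came closest. Its window is shown because a siRNaseH1 peak ended 68 bases from its transcribed side (chr14:24242574-24242873, minus strand). Capitals mark the transcribed bases.
TINF2: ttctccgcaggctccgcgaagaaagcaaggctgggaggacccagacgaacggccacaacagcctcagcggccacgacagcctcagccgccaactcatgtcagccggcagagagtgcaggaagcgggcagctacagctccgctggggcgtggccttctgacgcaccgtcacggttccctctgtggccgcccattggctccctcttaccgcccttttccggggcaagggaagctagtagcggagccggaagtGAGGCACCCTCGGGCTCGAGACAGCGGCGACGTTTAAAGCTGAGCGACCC
For comparison, NOP10 and ZBTB48, from a wider set of telomere genes described at the end, are shown because peaks reached into their windows. Capitals mark the bases covered by a siREXO4 peak. In the ZBTB48 window a siCtrl peak covered 168 bases, against 164 for that siREXO4 peak. The 3 windows shown were chosen after the values were seen. Peaks also reached windows of GAR1, TNKS2 and NHP2, which are not shown.
NOP10 (chr15:34343087-34343386, minus strand): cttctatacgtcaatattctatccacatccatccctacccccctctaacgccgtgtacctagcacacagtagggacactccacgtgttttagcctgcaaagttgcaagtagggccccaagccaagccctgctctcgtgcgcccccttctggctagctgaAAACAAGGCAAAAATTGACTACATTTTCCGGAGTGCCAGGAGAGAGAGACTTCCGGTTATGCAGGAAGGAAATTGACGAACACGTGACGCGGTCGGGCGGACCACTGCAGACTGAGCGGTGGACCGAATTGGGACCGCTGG
ZBTB48 (chr1:6579744-6580043, plus strand): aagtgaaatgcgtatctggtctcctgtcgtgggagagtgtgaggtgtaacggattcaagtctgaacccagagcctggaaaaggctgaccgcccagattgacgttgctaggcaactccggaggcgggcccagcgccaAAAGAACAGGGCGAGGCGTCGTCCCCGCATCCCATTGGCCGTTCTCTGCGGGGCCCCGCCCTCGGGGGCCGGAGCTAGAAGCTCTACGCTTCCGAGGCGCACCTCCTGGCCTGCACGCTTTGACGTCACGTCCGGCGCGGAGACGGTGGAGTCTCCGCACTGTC
The G+C content was 65.3% in the TINF2 window, 54.7% in the NOP10 window and 63.7% in the ZBTB48 window, against a median of 58.7% over all windows. The telomeric hexamer TTAGGG, searched on both strands, occurred in 0 of the 8 windows of the listed genes and in 9.05% of all windows.

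S9.6 peaks were found at 3 of the 10 genes in siREXO4 cells (TERF2, POT1 and RTEL1), at 5 in siRNaseH1 cells (TERF2, TERF2IP, TINF2, POT1 and RTEL1) and at 0 in siCtrl cells. Of all 19974 protein-coding genes, which include 9 of the 10, 33.7% held a siREXO4 peak, 39.2% a siRNaseH1 peak and 12% a siCtrl peak. The counts at the listed genes are thus close to these shares. As no siCtrl peak lay at any of the 10, every knockdown peak there was gained, meaning that no siCtrl peak overlapped it by 1 bp or more. Most peaks of the whole lists were gained too, 10851 of 12687 in siREXO4 and 18911 of 20954 in siRNaseH1. Gained peaks occurred at 31.3% of protein-coding genes for siREXO4 and 37.6% for siRNaseH1. A single locus, at TERF2, was gained in both knockdowns, against 20.8% of protein-coding genes with such a locus. TERF1, ACD, TERT, TERC and ATRX held no peak in any list, as did 53.3% of protein-coding genes.

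**Figure D1:**
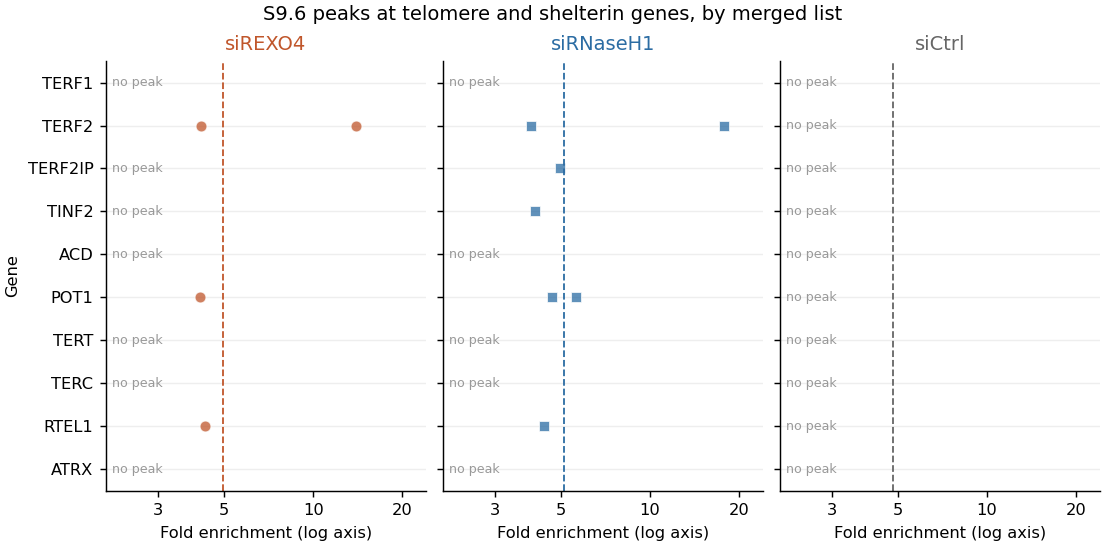
Fold enrichment (log axis) of every peak at the 10 genes in the siREXO4, siRNaseH1 and siCtrl lists; each symbol is 1 peak and the dashed line is the median of the whole list. TERF2 holds the highest peak in both knockdown lists, at 13.9 in siREXO4 and 17.8 in siRNaseH1, and the siCtrl panel has no peak.

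Among the double-strand binding proteins, TERF2 (chromosome 16, 69355567 to 69386007) held the highest peak of the 10 genes in each knockdown list. Its shared locus ran from 69385274 to 69386217 in the siREXO4 list, with a fold enrichment of 13.9, and from 69385203 to 69386289 in the siRNaseH1 list, with a fold enrichment of 17.8. Fold enrichment is the authors' own value, the coverage at the peak summit over the local background, and ranks peaks only within a list. The siREXO4 peak was 944 bp wide and lay wholly within the siRNaseH1 peak of 1087 bp, with summits 65 bp apart. Both summits were inside the gene, 202 bp from its upper boundary in siREXO4 and 137 bp in siRNaseH1. TERF2 is known to be transcribed from the minus strand, so this boundary is its 5′ end.

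The fold ranked 622nd of 12687 siREXO4 peaks and 566th of 20954 siRNaseH1 peaks, so that 4.89% and 2.70% of each list stood higher. The number of fragments over the summit, solved from the fold and p-value columns, was 62 in siREXO4 and 55 in siRNaseH1. The smallest siCtrl peak at the genome-wide siCtrl background held 7 fragments, which scales to 7.73 at the siREXO4 and 7.44 at the siRNaseH1 background. The TERF2 summit stood at 8.02 times this limit in siREXO4 and 7.39 times in siRNaseH1. These multiples ignore the local background, which was higher at this summit than the genome-wide one. It was 3.52 fragments against 1.41 in siREXO4, and 2.15 against 1.36 in siRNaseH1. The nearest siCtrl peak lay 10.5 kb from the gene, at TMED6.

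TERF2 also held a minor peak in each knockdown list, and these lay at different places. The siREXO4 peak had a fold of 4.17 and a summit 2.63 kb inside the lower boundary. The siRNaseH1 peak had a fold of 3.96 and a summit 13.3 kb inside the upper boundary. They were 14.2 kb apart and reached 1.29 times the siCtrl limit in siREXO4 and 1.21 times in siRNaseH1, close to that limit.

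TERF1 (chromosome 8, 73008864 to 73048123), the other double-strand binding protein, held no peak. The nearest siREXO4 peak was 131 kb away, the nearest siRNaseH1 peak 4.50 kb away with a fold of 3.94, and the nearest siCtrl peak 12.5 kb away with a fold of 4.26. Of 6812 protein-coding genes with 0.5 to 2 times its length of 39.3 kb, 37.8% held a siREXO4 peak, 45.6% a siRNaseH1 peak and 12.0% a siCtrl peak.

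Both bridging proteins had a peak in the siRNaseH1 list and in no other. TINF2 (chromosome 14, 24239640 to 24242674) held a 547 bp siRNaseH1 peak from 24241959 to 24242505, with a fold of 4.08. Its summit was 284 bp inside the upper boundary, which is the 5′ end of this minus-strand gene, and it stood at 2.28 times the siCtrl limit. The nearest siREXO4 peak was 25.8 kb away, at CHMP4A, with a fold of 30.5, and the nearest siCtrl peak 26.9 kb away, at the same gene. Among 2875 protein-coding genes of like length, 24.1% held a siREXO4 peak and 25.7% a siRNaseH1 peak.

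TERF2IP (chromosome 16, 75647773 to 75657432) was counted through its flank. The siRNaseH1 peak, 266 bp wide with a fold of 4.96, had its summit 1453 bp before the gene's start, within the span of the neighbouring gene KARS1, a lysyl-tRNA synthetase gene. It stood at 1.88 times the siCtrl limit. A siREXO4 peak with a fold of 4.53, also in KARS1, was 8.26 kb from TERF2IP and therefore outside the flank. The nearest siCtrl peak was 1190 kb away.

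**Figure D2:**
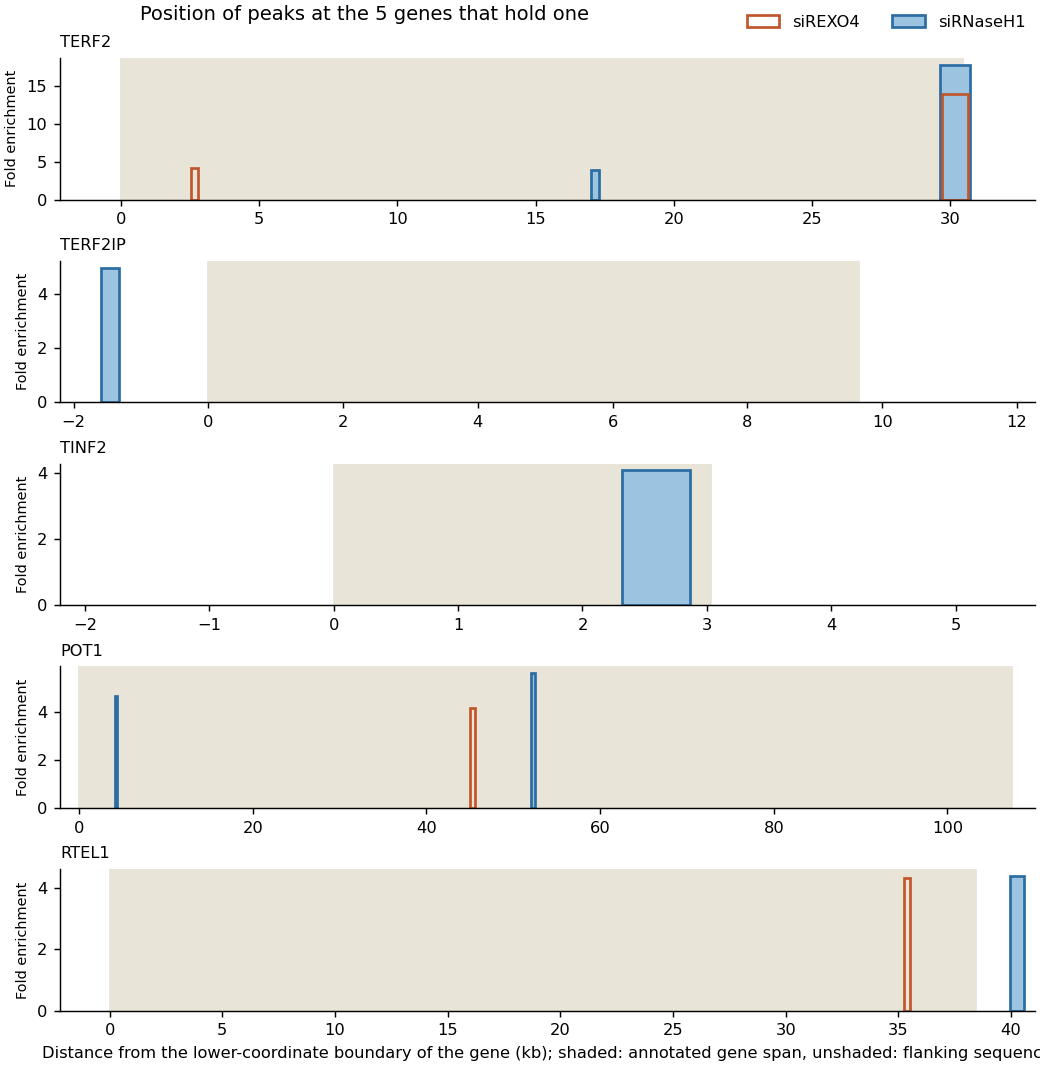
Position and fold enrichment of the peaks at the 5 genes that hold one, as distance in kb from the lower-coordinate boundary of each gene; bar width is peak width, open orange bars are siREXO4 and filled blue bars siRNaseH1. The lists share a locus at the upper end of TERF2, while the peaks at POT1 and RTEL1 lie apart.

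Of the single-strand binding pair, POT1 (chromosome 7, 124822386 to 124929825) held peaks in both knockdown lists, at different places in its 107 kb span. The siREXO4 peak, from 124867432 to 124867929, had a fold of 4.15 and 9 fragments at the summit, or 1.16 times the siCtrl limit. The siRNaseH1 peaks were at 124826509 to 124826794, with a fold of 4.67 (1.34 times the limit), and at 124874478 to 124874912, with a fold of 5.62 (2.15 times). The siREXO4 peak was 6.55 kb from the nearer of these. All 3 summits were over 4 kb inside the gene, and none was near the 5′ end. Of 4617 protein-coding genes of like length, 42.3% held a siREXO4 peak, with a mean of 0.783 peaks a gene, and 50.4% a siRNaseH1 peak, with a mean of 1.52.

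ACD (chromosome 16, 67657512 to 67660260) held no peak. The nearest lay 26.6 kb away in siREXO4 (fold 4.67), 35.5 kb away in siRNaseH1 (fold 4.27) and 32.0 kb away in siCtrl (fold 4.13). The knockdown peaks were both in GFOD2 and the siCtrl peak in CTCF. ACD and TINF2 are of similar length, at 2.75 kb and 3.04 kb, and of this pair TINF2 alone held a siRNaseH1 peak.

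The telomerase core had no peak in any list. TERT (chromosome 5, 1253167 to 1295068), the catalytic subunit, spans 41.9 kb. Its nearest peak was 360 kb away in siREXO4, 49.7 kb away in siRNaseH1, at CLPTM1L with a fold of 6.59, and 267 kb away in siCtrl. Among 6775 protein-coding genes of like length, 38.3% held a siREXO4 peak, 45.9% a siRNaseH1 peak and 12.3% a siCtrl peak. TERC (chromosome 3, 169764610 to 169765060), the RNA template, is 451 bp long. The nearest siREXO4 peak was 8.06 kb away with a fold of 3.50, and the nearest siRNaseH1 peak 8.24 kb away with a fold of 6.97, at MYNN. The nearest siCtrl peak was 186 kb away. Peaks do not measure transcripts, and the absence of a peak is at the depth of these merged libraries, which is not given.

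RTEL1 (chromosome 20, 63657810 to 63696253), a helicase that opens telomeric loops, held 1 peak in each knockdown list. The siREXO4 peak, from 63693059 to 63693323, had a fold of 4.32 and a summit 3.04 kb inside the 3′ end of this plus-strand gene, at 2.07 times the siCtrl limit. The siRNaseH1 peak, from 63697765 to 63698374, had a fold of 4.40 and a summit 1874 bp beyond that end, at 2.42 times the limit. They were 4.44 kb apart. RTEL1-TNFRSF6B, a readthrough transcript, spans both peaks, and the siRNaseH1 peak lies in TNFRSF6B, a decoy receptor gene, so the flank rule cannot tell which gene it belongs to. The nearest siCtrl peak was 83.6 kb away, at HELZ2.

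ATRX (chromosome X, 77504880 to 77786216), a remodeller that deposits histone H3.3 at telomeres together with DAXX, is the longest of the 10 genes at 281 kb and held no peak. Of 1957 protein-coding genes of like length, 42.9% held a siREXO4 peak, 48.7% a siRNaseH1 peak and 22.9% a siCtrl peak, and 37.0% held none in any list. Peaks were sparser on X. Of 80 such genes there, 21.2% held a siREXO4 peak, 25.0% a siRNaseH1 peak and 2.50% a siCtrl peak, and 68.8% held none. The nearest peak to ATRX was 21.7 kb away in siREXO4 (fold 4.98), 318 kb away in siRNaseH1, at PGK1, and 8850 kb away in siCtrl. Whether the whole ATRX span is present in the DNA of these cells was not examined. Its lack of peaks is therefore not read as a lack of hybrids.

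**Figure D3:**
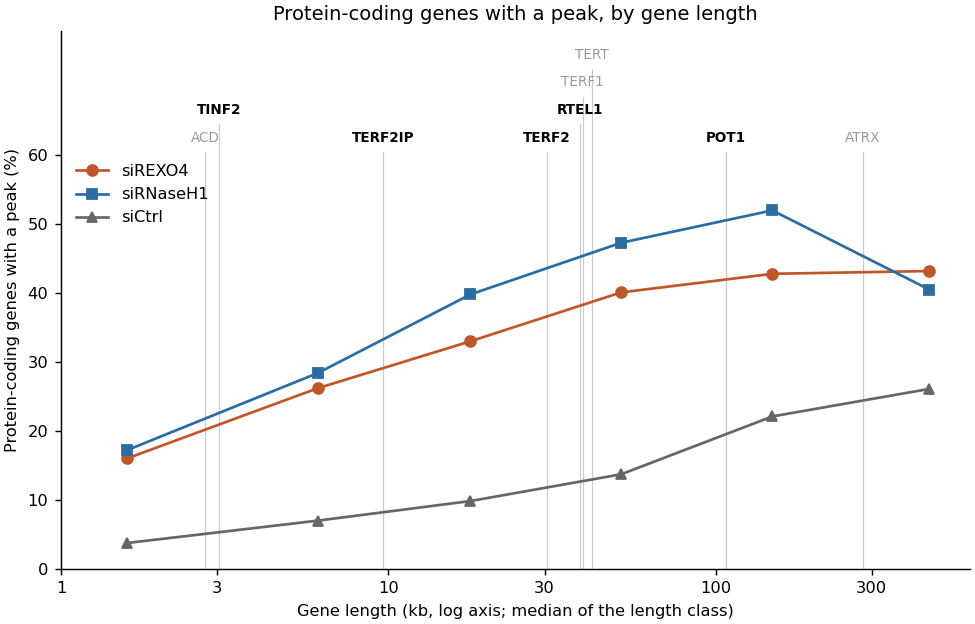
Share of protein-coding genes with a peak (%) in each list against gene length (log axis, median of 6 length classes, genes of any chromosome); vertical lines mark the 9 protein-coding genes of the list, bold where a knockdown peak was found. The siRNaseH1 share runs from 17.2% in the shortest class to 52.0% at 100 to 300 kb, and RTEL1, with a peak, stands beside TERF1 and TERT, without.

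Across the 10 genes, the median fold of the peaks was 4.25 in siREXO4 and 4.67 in siRNaseH1, against 4.98 and 5.11 over the whole lists. All but TERF2's shared locus in siREXO4, and all but that locus and 1 POT1 peak in siRNaseH1, had a fold under 5. Over the whole lists, 46.8% of siREXO4 and 54.8% of siRNaseH1 peaks had a fold of at least 5. In siREXO4, 1 of 4 summits lay within 2 kb of a boundary of its gene, and in siRNaseH1 4 of 7, of which those at TERF2IP and RTEL1 were counted through the flank. Over the whole lists, peaks far from genes included, 36.2% of siREXO4 and 28.7% of siRNaseH1 summits lay within 2 kb of a protein-coding gene boundary. No difference in position is read from so few peaks. The 3 genes with peaks in both knockdown lists shared a locus at TERF2 only. Of 5502 protein-coding genes with peaks in both lists, 75.4% held a locus gained in both.

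Further telomere genes were taken from a list of 26. Of these, 16 held a siREXO4 peak, 21 a siRNaseH1 peak and 6 a siCtrl peak, which are 61.5%, 80.8% and 23.1%, against 33.7%, 39.2% and 12% of all protein-coding genes. A locus gained in both knockdowns was found at 8 of the 26, against 20.8% of protein-coding genes. The list was chosen with earlier results of these data known, so nothing is read from these differences. Of the 3 CST genes, whose products bind single-stranded telomeric DNA, 2 held a siREXO4 peak, 3 a siRNaseH1 peak and 1 a siCtrl peak. CTC1 held a locus gained in both, with a fold of 3.90 in siREXO4 and 7.75 in siRNaseH1. This locus also lies within 2 kb of the tRNA genes TRT-AGT1-2, TRS-AGA2-6 and TRI-AAT4-1. TEN1 had the highest siREXO4 fold of the complex (4.12), at a peak apart from its siRNaseH1 peak (4.47).

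Of the 7 genes of telomerase RNP assembly, 3 held a siREXO4 peak, 7 a siRNaseH1 peak and 1 a siCtrl peak (33.7%, 39.2% and 12% of all protein-coding genes). NOP10, which encodes a small H/ACA protein that binds TERC, led with a fold of 11.0 in siREXO4 (34342637 to 34343227) and 16.8 in siRNaseH1 (34342298 to 34343376). These peaks cover 141 bases of the NOP10 window shown above in siREXO4 and 290 in siRNaseH1. The siRNaseH1 peak also overlaps the neighbouring gene NUTM1. A locus gained in both also lay at GAR1, another H/ACA protein gene, with a fold of 4.07 in siREXO4 and 5.22 in siRNaseH1.

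Of the 6 genes of shelterin partners and end processing, 5 held a siREXO4 peak, 4 a siRNaseH1 peak and 2 a siCtrl peak, with the same 33.7%, 39.2% and 12% over all protein-coding genes. ZBTB48, which encodes the telomere-binding protein TZAP, had the highest fold in each knockdown list, 7.27 in siREXO4 and 10.6 in siRNaseH1. A siCtrl peak with a fold of 3.99 overlapped both, so this promoter locus was not gained. TNKS, a tankyrase gene, held 1 siREXO4 peak (4.21) and 17 siRNaseH1 peaks, and RIF1, which encodes a replication timing and repair factor, held 1 siREXO4 peak (4.98) and 16 siRNaseH1 peaks. The siRNaseH1 folds ran from 2.74 to 7.39 at TNKS and from 3.89 to 8.27 at RIF1. Those summits stood at 1.21 to 3.09 times the siCtrl limit at TNKS and 1.21 to 3.22 times at RIF1. Protein-coding genes of like length averaged 0.82 siREXO4 and 1.60 siRNaseH1 peaks for TNKS, and 0.791 and 1.57 for RIF1. Neither gene held a siCtrl peak, and each shared 1 locus between the knockdowns, with the siREXO4 summit 203 bp inside the lower boundary of TNKS and 5.90 kb inside that of RIF1.

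Of 10 genes of recombination and remodelling at ALT telomeres, 6 held a siREXO4 peak, 7 a siRNaseH1 peak and 2 a siCtrl peak, against 33.7%, 39.2% and 12% over all protein-coding genes. RAD52, a recombination mediator, had the highest fold in both lists and 2 loci gained in both. Inside the gene the fold was 5.85 in siREXO4 and 8.02 in siRNaseH1. In its upper flank, which overlaps ERC1, it was 6.03 and 7.33. DAXX, the partner of ATRX, held a shared locus 235 bp from its upper boundary in siREXO4, with a fold of 4.15, and 4.24 in siRNaseH1, at 1.16 and 1.21 times the siCtrl limit. PML and WRN held no peak in any list, and neither did DCLRE1B, a gene of the sublist of shelterin partners and end processing.

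**Figure D4:**
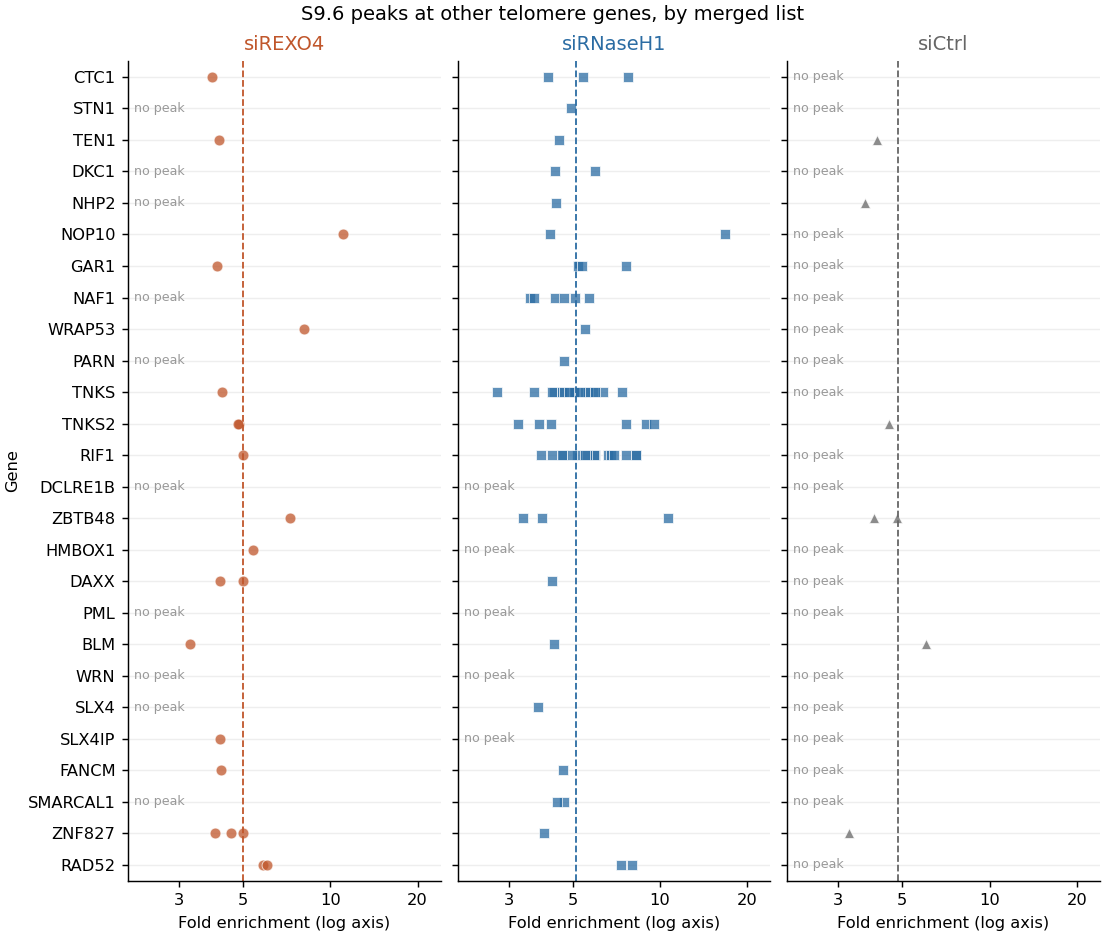
Fold enrichment (log axis) of every peak at the 26 further telomere genes in the siREXO4, siRNaseH1 and siCtrl lists; symbols are single peaks and the dashed line is the median of the whole list. NOP10 stands highest in both knockdown lists, at 11.0 in siREXO4 and 16.8 in siRNaseH1, and TNKS and RIF1 show many siRNaseH1 peaks beside 1 in siREXO4.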

How the data were processed

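The 3 S9.6 libraries per transfection (9 of 13 samples) were merged by the authors and peaks called on the merge, per the labels and file names. Tools named in the submitters' processing notes are MACS2 2.1.0.20150731, HISAT2 2.2.1, SAMtools 1.17, Trim Galore 0.6.10, Cufflinks and deepTools 3.5.1, with hg38 as build. For the control library, the options and the read depth, values are not given in the sources. The deposited lists have 10 columns: the fold enrichment (a ratio), the −log10 p-value and −log10 q-value at each summit, and a score, which was not used. Input, IgG and single-library tracks were not used here.

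The peaks of chromosomes 1 to 22 and of X were set against RefSeq gene spans of GRCh38.p14, the hg38 coordinates. Fragments at a summit were solved from the deposited fold and p-value, with (fragments + 1) / (background + 1) as fold and the upper Poisson tail as p. Every peak with a −log10 p under 300 gave a whole number of fragments to within 0.001 in −log10 p. Genes, lists and the naming rule (all 10 genes, further genes with a locus gained in both or the highest fold of their sublist) were chosen with earlier results of these data known. Of the further genes, 1 locus gained in both is left out of the text. Alternatives varied flank, part of the gene, thresholds, list length, overlap and chromosomes. The code ran in Python 3.11.15 with SciPy 1.17.1, pandas 2.3.3, NumPy 2.4.6 and Matplotlib 3.10.9, and was tested on simulated data.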

Additional observations from a re-analysis of the deposited data

How the results depend on the processing

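Of 52 recomputed counts at the knockdown lists, 33 stayed within 1.5 times the count given. Some of these could not move. Peaks on further sequences could change no count, because the listed genes all lie on the chromosomes already used. A stricter overlap rule could not change the genes with a gained peak, because no siCtrl peak lay at any listed gene. Counts of genes with a gained peak also repeat those of genes with a peak. The share of 33 in 52 therefore overstates how stable the counts are. The single locus gained in both, at TERF2, held under every alternative run. None of them could remove it, given its folds, its p-values, its nested peaks and its place at the gene boundary. The siCtrl count was 0 throughout, but the only alternative that could raise it was 5 kb flanks. When counting was limited to 2 kb around either boundary, 1 siREXO4 gene with 1 peak was left (TERF2), and 4 siRNaseH1 genes with 4 peaks. With a fold of at least 5, siREXO4 kept 1 gene with 1 peak (TERF2) and siRNaseH1 2 genes with 2 peaks (TERF2 and POT1). With lists of equal length (4458 peaks of lowest p-value), 1 gene with 1 peak was left in each knockdown, TERF2. With −log10 q of at least 3, siREXO4 kept 2 peaks. Without flanks, siRNaseH1 kept 3 genes (TERF2, TINF2 and POT1). The same numbers hold for genes with a gained peak. These changes follow from what each alternative leaves out. With 5 kb flanks, TERF1 gained a siRNaseH1 peak. Apart from the TERF2 locus, the knockdown peaks stood at 1.16 to 2.42 times the siCtrl calling limit. That limit holds at the genome-wide background and ignores a higher local one, where more fragments are needed for a call. At the TINF2 summit the local background was 3.41 fragments, against 1.36 genome-wide in siRNaseH1. How far depth bears on their absence from a list was not tested, as it is not given. No paired analysis was possible because the lists analysed hold no value for a single library.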

Other observations

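Peaks near chromosome ends were also counted, although unassembled telomeric repeats are not in the coordinates. Within 100 kb of coordinate 1 or of the last annotated gene end of chromosomes 1 to 22 and X, there were 15 siREXO4 peaks, 10 siRNaseH1 peaks and 13 siCtrl peaks. These are 0.118%, 0.0477% and 0.292% of their lists. Within 1000 kb there were 273, 293 and 84, or 2.15%, 1.40% and 1.88%. The number of siRNaseH1 peaks in the outermost 100 kb was below the siCtrl number, while that list as a whole is longer. Reads that map to several subtelomeres could not be told apart, and their treatment is not given.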
